A study of Rattus norvegicus with 9 samples.

Results

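The AMPA and NMDA receptor subunits are the core proteins of the main glutamate-gated ion channels of the brain. They were followed in cultured rat oligodendrocyte precursor cells (OPCs) treated with bavisant, which blocks the histamine H3 receptor. The members were chosen by gene symbol and not by any measured value. They are 10 of the 32623 genes listed: the 4 AMPA subunit genes Gria1, Gria2, Gria3 and Gria4 and 6 NMDA subunit genes. The latter are Grin1, Grin2a, Grin2b, Grin2c, Grin2d and Grin3a. A further NMDA subunit gene, Grin3b, was not a member and had 0 to 8 reads per library. All 10 members were among the 15321 genes with enough reads to be tested.

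Bulk RNA sequencing of poly(A) RNA was done on 9 libraries of primary OPCs purified from the brain of wild-type (WT) rats and collected after 5 days in differentiation medium. There were 3 basal libraries without bavisant, 3 at 1 µM and 3 at 10 µM, and all shared the same medium with B27, N1, biotin and laminin. In each group the libraries carry the numbers P11, P13 and P14. What P stands for is not explained, and no label says whether the numbers are different animals or cultures. The spread behind each p-value may therefore be technical. The lower dose is 1 µM by the treatment labels and the study design, although a protocol text writes it as 1 mM.

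AMPA receptors are tetramers of GluA subunits that open on binding glutamate and carry fast excitatory current. The GluA2 subunit, after RNA editing, makes the channel largely impermeable to calcium. NMDA receptors need the obligatory GluN1 subunit together with GluN2 subunits, which bind glutamate, or GluN3 subunits, which bind glycine. OPCs carry both receptor types and receive synapses from neurons, and both are known to decline as these cells become myelinating oligodendrocytes.

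The libraries held 23.9 to 43.1 M reads (M, 1e+06), the basal P11 library being the shallowest. In a principal component analysis the first component took 62.6% of the variance. The OPC label was checked against markers: the precursor marker Pdgfra stood at 91.9 to 267 TPM (transcripts scaled by gene length and depth) and Gpr17 at 381 to 754 TPM. The lowest in the OPC marker list were Cspg4 at 17.7 to 36.0 TPM and Neu4 at 0 to 2.36 TPM. The myelin gene Mbp, of the later oligodendrocyte stage, stood at 17296 to 27242 TPM in the same libraries. The astrocyte gene Gfap stood at 561 to 1221 TPM, so RNA typical of other cells was also present. Among neuron markers, the inhibitory gene Gad1 stood at 20.0 to 110.2 TPM, while the vesicular glutamate transporters Slc17a6 and Slc17a7 had 1 to 6 and 0 to 7 reads per library.

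Of the 10 subunits, Gria2 was the most abundant, at 100.6 ± 13.9 TPM (mean ± SD, n = 9 libraries). Gria4 followed at 38.1 ± 3.85 TPM, Gria1 at 21.4 ± 11.96 TPM and Gria3 at 19.7 ± 4.46 TPM. Gria1 had by far the widest relative spread of the 4 AMPA subunits. The NMDA subunits were lower: Grin1, the obligatory subunit, averaged 10.7 ± 3.37 TPM and Grin3a, the glycine-binding GluN3A subunit, 10.1 ± 2.13 TPM. The 4 GluN2 genes were the least abundant, with Grin2b at 0.787 ± 0.333 TPM, Grin2d at 0.534 ± 0.108 TPM, Grin2a at 0.149 ± 0.067 TPM and Grin2c at 0.132 ± 0.075 TPM.

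In this order of TPM levels, only some neighbours were separate. Gria2 exceeded Gria4 by 2.42 to 2.92 times in every library, Grin3a exceeded Grin2b by 7.03 to 23.9 times, and Grin2d exceeded Grin2a by 2 to 11.8 times, each with no overlap of ranges. Gria1 and Gria3 changed places from library to library, with Gria1 higher in 4 of 9. Grin1 was higher than Grin3a in 5 of 9, Grin2b higher than Grin2d in 7 of 9 and Grin2a higher than Grin2c in 6 of 9. Gria4 was higher than Gria1, and Gria3 higher than Grin1, in 9 of 9 libraries, but their ranges overlapped. Counting error is large for the rarest members: Grin2a had 3 to 21 reads per library, Grin2c 4 to 27 and Grin2d 31 to 53, against 6520 to 16111 for Gria2.

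**Figure D1:**
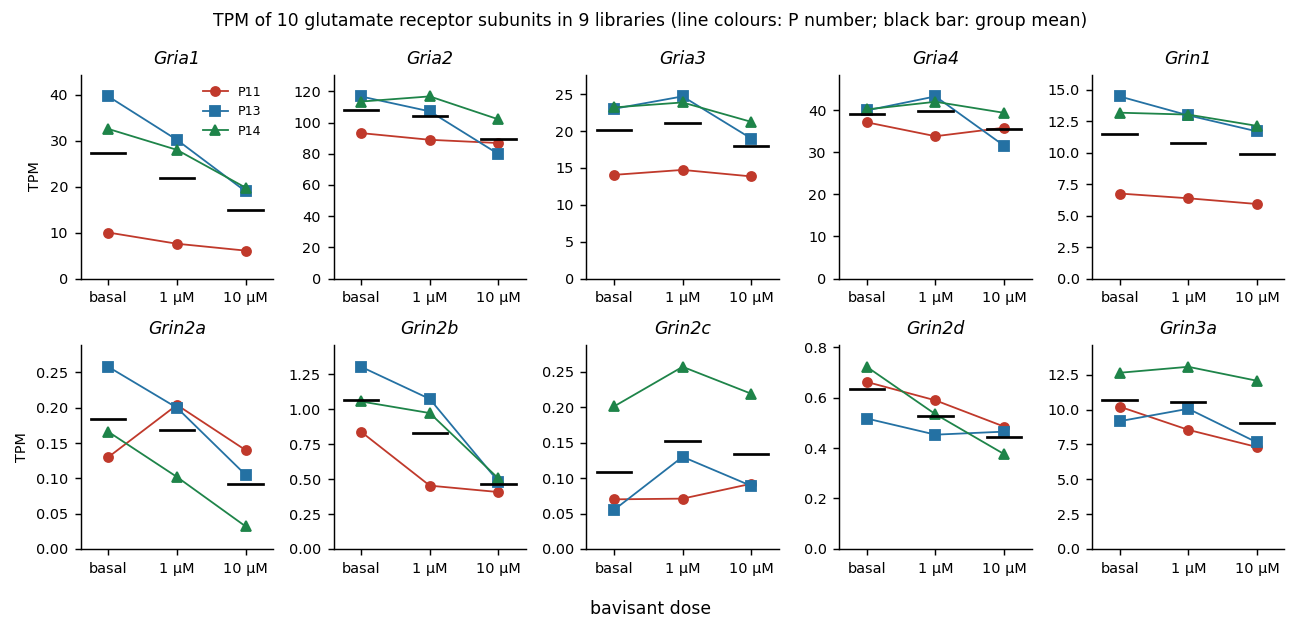
TPM (y axis, linear from 0) of each of the 10 subunits at each bavisant dose (x axis). Points are single libraries, joined within a P number by lines (red circles P11, blue squares P13, green triangles P14), and black bars are group means of 3 libraries. Gria1, Grin1 and Grin2b step down with dose within each P number on this scale. The P11 line lies far below those of P13 and P14 for Gria1, Gria3 and Grin1.

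Differences between doses were tested with edgeR's quasi-likelihood test on all 15321 genes with Benjamini-Hochberg adjustment, once without and once with the P number as a block (a term that compares libraries of the same P number). A gene was called when its adjusted p was under 0.05. Values below are log2 fold changes ± SE with that block, unless stated.

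At 10 µM, Gria1 and Grin2b RNA was lower than in basal cultures, and no subunit was called higher. Gria1 (ENSRNOG00000045816) encodes GluA1, the AMPA subunit whose insertion into the membrane is regulated by activity in neurons. Grin2b (ENSRNOG00000008766) encodes GluN2B, the glutamate-binding NMDA subunit that prevails early in brain development. The call of both genes depended on the block: with it, 2 of 10 subunits were called, both lower, where 3.96% of all tested genes were called, 2.64% lower and 1.32% higher. Without the block no subunit and no gene at all was called by edgeR (0 of 15321, with 808 at an unadjusted p under 0.05). DESeq2 without the block called 64 genes, none of them a subunit. Marker lists of other cells and of oligodendrocytes moved in the same contrast. Median log2 fold changes were -0.20 for neuron, -0.25 for astrocyte, -0.14 for microglia, -0.46 for vascular and mural and 0.34 for oligodendrocyte markers. Their part in the result was not tested. In bulk RNA, fewer cells of a type and less RNA per cell cannot be told apart.

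Gria1 had 6.08, 19.0 and 19.8 TPM at 10 µM (P11, P13 and P14), against 10.0, 39.7 and 32.6 TPM in basal cultures in the same order. The 10 µM library was the lower within each P number, but the groups overlapped, since basal P11 lay below the 10 µM libraries of P13 and P14. The difference was -0.78 ± 0.08, a 1.72-fold lower level (adjusted p = 0.010 by edgeR). Within P numbers the log2 ratios were -0.67, -0.97 and -0.67. Without the block the estimate was -0.81 ± 0.65 (adjusted p = 1.00 by edgeR).

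The Gria1 call with the block was kept in 7 of 9 fits that each left out a single library, and its adjusted p was 0.055 without basal P11 and 0.058 without basal P13 by edgeR. It was 0.059 when only the 10 µM and basal libraries were fitted. In the other blocked settings the adjusted p lay between 4.8e-11 (DESeq2) and 0.046 (all P11 libraries left out).

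Grin2b had 0.407, 0.482 and 0.504 TPM at 10 µM, against 0.838, 1.30 and 1.06 TPM in basal cultures (P11, P13 and P14). All 3 of the 10 µM libraries lay below all 3 basal ones, which in CPM was so for no other subunit and in TPM also for Grin2d. Of all tested genes, 4.6% were lower with no overlap in CPM (reads scaled to library depth). These levels rest on few reads, 50, 62 and 59 at 10 µM and 63, 123 and 109 in basal cultures. The difference was -1.12 ± 0.20, a 2.17-fold lower level (adjusted p = 0.029 by edgeR), with ratios of -1.01, -1.33 and -1.02 within P numbers. Without the block it was -1.13 ± 0.31 (adjusted p = 0.793 by edgeR).

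The Grin2b call was less stable than its size. Over the 9 blocked fits without a single library the log2 fold change stayed between -1.28 and -0.98. The adjusted p by edgeR passed in 3 of them and missed without basal P11 (0.104), basal P13 (0.138), basal P14 (0.084), 1 µM P14 (0.053), 10 µM P13 (0.096) and 10 µM P14 (0.104). It also missed with limma on TPM (0.086 and 0.096 at pseudocounts of 1 and 0.1), with only the 10 µM and basal libraries (0.070) and with all P11 libraries left out (0.067).

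The other subunits did not pass at 10 µM against basal. Gria2 averaged 89.6 ± 11.4 TPM at 10 µM and 107.8 ± 12.7 TPM in basal cultures (SD, n = 3 each), a difference of -0.18 ± 0.07 (adjusted p = 0.183 by edgeR). Gria4 averaged 35.6 ± 3.92 and 39.1 ± 1.71 TPM in the same groups (-0.05 ± 0.08) and Gria3 18.0 ± 3.79 and 20.1 ± 5.23 TPM (-0.08 ± 0.05). These differences were smaller than that of Gria1, and their groups overlapped. Among NMDA subunits, Grin1 differed by -0.12 ± 0.06, Grin3a by -0.21 ± 0.09 and Grin2d by -0.37 ± 0.19. Grin2a (-1.02 ± 0.42) and Grin2c (0.42 ± 0.34) had too few reads to fix a size.

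Of the 10 subunits 9 had a negative log2 fold change at 10 µM, where 8090 of all 15321 tested genes did. The median was -0.20, beside a median of -0.01 over all tested genes. Within all 3 P numbers, 6 of 10 were lower in CPM (24.2% of all tested genes) and 1, Grin2c, was higher (20.5%). Reads of some subunits could include those of an overlapping gene, since the strand setting of the counting is not given in the sources used here. In a RefSeq gene table of the newer assembly GRCr8, Grin2d overlaps Grwd1 (311 to 623 reads per library) and Grin1 overlaps Lrrc26 (0 to 1). Grin3a overlaps Ppp3r2 (3 to 11) and Gria2 overlaps Mir2985 (0 to 2). Gria1 overlaps a further protein-coding gene, and Grin2b, Grin2a, Grin2d, Grin3a, Gria2 and Gria4 overlap long noncoding RNA genes. These further genes are not among the genes listed by name, so their reads are not known.

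At 1 µM against basal, no subunit was called with or without the block, and no gene at all by edgeR (0 of 15321, or 0%, with 582 at an unadjusted p under 0.05 with the block and 81 without). DESeq2 called 5 genes without the block and 8 with it, none of them a subunit. Gria1 had 7.58, 30.2 and 28.02 TPM at 1 µM (P11, P13 and P14), against 10.0, 39.7 and 32.6 TPM in basal cultures. It was lower within each P number, with log2 ratios of -0.38, -0.40 and -0.23, and the fitted difference was -0.33 ± 0.07 (unadjusted p = 0.0019, adjusted p = 1.00 by edgeR). Grin2b had 0.453, 1.07 and 0.972 TPM at 1 µM, against 0.838, 1.30 and 1.06 TPM in basal cultures, a difference of -0.40 ± 0.20. P11 gave most of that difference: the log2 ratio was -0.88 in P11, -0.28 in P13 and -0.13 in P14.

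The remaining subunits lay between -0.20 and 0.52 at 1 µM on the log2 scale. Gria2 (-0.05 ± 0.07), Gria3 (0.06 ± 0.05), Gria4 (0.02 ± 0.08), Grin1 (-0.07 ± 0.06) and Grin3a (-0.03 ± 0.09) were close to 0. The median of the 10 was -0.06, and 7 were negative, where 7888 of all 15321 tested genes were. In CPM, Gria1, Grin2b and Grin2d were lower within all 3 P numbers (3 of 10, where 14.3% of all tested genes were) and Gria3 and Grin2c higher (2 of 10, where 13.7% were).

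Between the doses, 10 µM against 1 µM, Gria1 was again called lower with the block, at -0.45 ± 0.08 or 1.36-fold (adjusted p = 0.023 by edgeR). It was the single subunit of 10 called there, where 4.3% of all tested genes were called, 3% lower and 1.31% higher. The Gria1 levels were 6.08, 19.0 and 19.8 TPM at 10 µM, against 7.58, 30.2 and 28.02 TPM at 1 µM, lower within each P number with log2 ratios of -0.29, -0.57 and -0.44. Grin2b differed by -0.72 ± 0.20 (adjusted p = 0.092 by edgeR), with ratios of -0.13, -1.05 and -0.89, so its P11 libraries barely differed between the doses. All 10 subunits were negative in this comparison, where 7839 of all 15321 tested genes were. Their median was -0.16 beside -0.0045 over all tested genes. Within all 3 P numbers, 7 of 10 were lower in CPM (21.9% of all tested genes) and 0 higher (20.5%).

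That Gria1 call was kept in 4 of 9 blocked fits without a single library. The adjusted p by edgeR was 0.063 without 1 µM P11, 0.090 without 1 µM P13, 0.109 without 1 µM P14, 0.057 without 10 µM P13 and 0.088 without 10 µM P14. It was 0.078 with only these dose groups fitted and 0.053 with all P11 libraries left out. Without the block the estimate was -0.48 ± 0.65 and no subunit was called (edgeR). The comparisons share libraries, so the calls at 10 µM are not independent of each other.

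Gria1, Grin2b and Grin2d were lower in CPM at each dose step, basal to 1 µM to 10 µM, within all 3 P numbers. Of all tested genes, 381 (2.49%) showed that order in CPM. In TPM, Gria1, Grin2b and Grin1 showed it, and the share of all tested genes was not counted on that scale. Grin2d, encoding the GluN2D subunit, had 0.662, 0.517 and 0.722 TPM in basal cultures (P11, P13, P14), 0.589, 0.453 and 0.534 TPM at 1 µM and 0.485, 0.465 and 0.376 TPM at 10 µM. In TPM its 10 µM libraries lay below the basal ones, but in CPM these groups overlapped. Of all tested genes, 4.6% were lower with no overlap in CPM, and the share in TPM was not counted. The P13 libraries of Grin2d did not keep the dose order in TPM, and Grin2d was called in no comparison of doses. Its 31 to 53 reads per library also leave wide counting error.

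**Figure D2:**
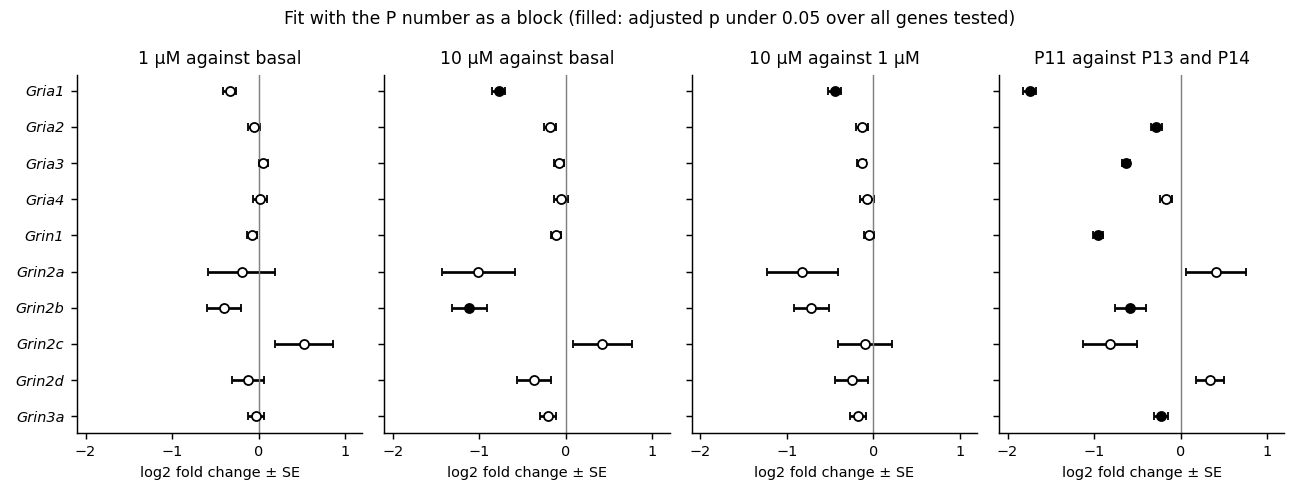
Log2 fold change ± SE (x axis) of each subunit (rows) in the fit with the P number as a block, for 3 comparisons of doses and a comparison of the P numbers. Filled points have an adjusted p under 0.05 over all genes tested. Gria1 and Grin2b are filled at 10 µM against basal, Gria1 alone at 10 µM against 1 µM, none at 1 µM against basal and 6 subunits in the comparison of P numbers.

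The make-up of the subunit RNA was described from TPM, with no test. The sums hold for that scale only. Gria2 averaged 107.8 TPM and 321.9 CPM in basal cultures, and 89.6 TPM and 284.3 CPM at 10 µM, a smaller relative fall in CPM. Summed AMPA subunit TPM averaged 194.4 ± 35.0 in basal cultures, 187.1 ± 36.4 at 1 µM and 158.2 ± 21.3 at 10 µM (SD, n = 3 each). Summed NMDA subunit TPM averaged 24.1 ± 4.86, 23.0 ± 6.08 and 20.1 ± 5.50 in the same order, with overlapping groups. Gria2 made up 52.2 to 61.3% of the AMPA sum over all 9 libraries, with overlapping groups.

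The Gria1 share of the AMPA sum was 4.26, 12.7 and 10.8% at 10 µM (P11, P13 and P14), against 6.49, 18.1 and 15.6% in basal cultures. It was lower within each P number, yet differed more between P11 and the other P numbers than between doses. The Grin2b share of the NMDA sum was 2.83, 2.35 and 1.99% at 10 µM, against 4.49, 5.06 and 3.77% in basal cultures, with no overlap. Grin1 and Grin3a together made up nearly all of the NMDA sum, at 36.2 to 57.1% and 35.6 to 54.7% of it per library.

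**Figure D3:**
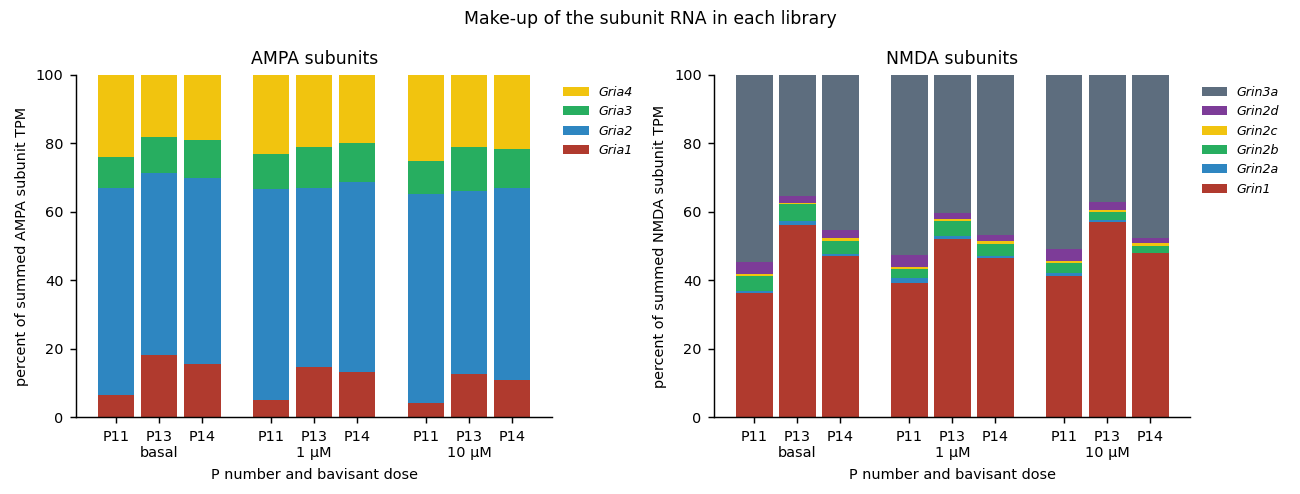
Percent of the summed AMPA subunit TPM (left) and of the summed NMDA subunit TPM (right) held by each subunit (colours) in each of the 9 libraries (x axis, grouped by dose). The Gria1 part of the AMPA bars and the thin Grin2b part of the NMDA bars are smaller at 10 µM than in basal cultures of the same P number, and Gria2 stays between 52.2 and 61.3% throughout.

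The subunits also differed by P number. P11 is a single number, and its 3 libraries are the 3 doses. The p-values of this contrast thus measure spread among libraries within P numbers, not spread between P numbers. Against P13 and P14, P11 had 6 of 10 subunits called lower and none higher, where 50.6% of all tested genes were called, 25.4% lower and 25.2% higher. Gria1 was 3.35-fold lower in P11 (-1.75 ± 0.07, adjusted p = 1.27e-06 by edgeR). It stood at 6.08 to 10.0 TPM in the 3 P11 libraries, against 19.0 to 39.7 TPM in the 6 others. These ranges did not overlap, but the share of all tested genes separated in this way was not counted.

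Grin1 had 5.92 to 6.76 TPM in P11, against 11.7 to 14.5 TPM in P13 and P14 (-0.95 ± 0.05, adjusted p = 4.20e-06 by edgeR). Gria3 had 13.9 to 14.7 TPM in P11, against 19.0 to 24.7 TPM (-0.64 ± 0.05, adjusted p = 1.94e-05 by edgeR). Both were separate between P11 and the other P numbers at every dose, again with no count of how many tested genes were. Gria2 (-0.28 ± 0.06), Grin2b (-0.58 ± 0.18) and Grin3a (-0.23 ± 0.08) were also called lower in P11.

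The Gria1, Grin1, Gria3 and Gria2 calls were kept in all 9 blocked fits without a single library. Grin2b was kept in 3 of 9, with an adjusted p by edgeR of 0.052 without basal P11, 0.056 without basal P13, 0.164 without 1 µM P11, 0.053 without 1 µM P13, 0.062 without 1 µM P14 and 0.051 without 10 µM P14. Grin3a was kept in 4 of 9, at 0.204 without 1 µM P11, 0.082 without 1 µM P13, 0.070 without 1 µM P14, 0.194 without 10 µM P11 and 0.092 without 10 µM P14. Gria4 (-0.17 ± 0.07), Grin2a (0.41 ± 0.35), Grin2c (-0.82 ± 0.31) and Grin2d (0.34 ± 0.16) did not pass.

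Genes that act with the receptors were read from 6 lists: AMPA auxiliary subunits, kainate and delta receptor genes, postsynaptic scaffolds, calcium-dependent signalling, RNA editing enzymes, and the supply and removal of glutamate and its co-agonists. The kainate and delta list also holds Grin3b, Neto1 and Neto2. With the block, at 10 µM against basal, 8 of their 69 tested genes were called, all lower, and without the block none was (edgeR, and none by DESeq2 without the block). The background of 3.96% called holds here too.

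None of the 10 tested AMPA auxiliary subunits was called at 10 µM, and their median log2 fold change was -0.23. Cacng4, a TARP protein that traffics and gates AMPA receptors, was their most abundant member, at 107.4 ± 37.3 TPM at 10 µM and 115.2 ± 37.3 TPM in basal cultures (-0.04 ± 0.05). None of the 9 tested kainate and delta receptor genes was called either (median -0.04). Grik5, a kainate receptor subunit, averaged 58.0 ± 4.82 TPM at 10 µM and 68.6 ± 10.3 TPM in basal cultures (-0.13 ± 0.05, adjusted p = 0.190 by edgeR).

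Of 23 tested scaffold and trafficking genes, 4 were called lower at 10 µM and none higher (median -0.06). Shank2, a scaffold of the postsynaptic density, had 3.79, 3.64 and 4.89 TPM at 10 µM, against 5.84, 5.67 and 6.20 TPM in basal cultures (-0.46 ± 0.07, adjusted p = 0.018 by edgeR). Dlg2, the scaffold PSD-93 that binds NMDA receptors, had 2.26, 3.11 and 4.12 TPM at 10 µM, against 4.38, 6.71 and 5.67 TPM (-0.76 ± 0.15, adjusted p = 0.034 by edgeR). Neither gene overlapped between the groups in TPM. Of all tested genes, 4.6% were lower with no overlap in CPM, and both genes were named because they were called.

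Nptx1, a secreted pentraxin that clusters AMPA receptors, averaged 0.613 ± 0.327 TPM at 10 µM and 1.23 ± 0.793 TPM in basal cultures (-0.89 ± 0.17, adjusted p = 0.031 by edgeR). Grip1, which binds the tails of GluA2 and GluA3, averaged 9.84 ± 3.42 and 12.8 ± 3.96 TPM in the same groups (-0.33 ± 0.07, adjusted p = 0.044 by edgeR). These groups overlapped, and the differences showed within P numbers.

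Of 12 tested genes of calcium-dependent signalling, 1 was called lower (median -0.11). It was Camk2a, the kinase subunit that binds GluN2B and phosphorylates GluA1 in neurons. Camk2a had 0.812, 3.67 and 3.41 TPM at 10 µM, against 1.89, 6.66 and 6.07 TPM in basal cultures (-0.85 ± 0.16, adjusted p = 0.032 by edgeR). As for Gria1, the groups overlapped because P11 was low at every dose. Camk2a also fell at 10 µM against 1 µM, by 0.84 ± 0.16 on the log2 scale (adjusted p = 0.031 by edgeR), with 2.06, 6.10 and 5.58 TPM at 1 µM.

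None of the 3 tested editing enzymes was called (median -0.19). Adar, the most abundant, averaged 21.6 ± 4.27 TPM at 10 µM and 25.7 ± 1.42 TPM in basal cultures (-0.19 ± 0.13, adjusted p = 0.418 by edgeR). Adarb1, which edits the Gria2 transcript, was not called either, and editing itself was not analysed here.

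Of 12 tested genes for supply and removal of glutamate and co-agonists, 3 were called lower (median -0.07). Slc7a11, the cystine-glutamate exchanger, had 3.90, 2.90 and 2.72 TPM at 10 µM, against 9.34, 5.26 and 4.77 TPM in basal cultures (-0.91 ± 0.14, adjusted p = 0.019 by edgeR). Its groups did not overlap in TPM, where 4.6% of all tested genes were lower with no overlap in CPM. Slc1a2 (GLT-1), a glutamate transporter, averaged 43.6 ± 17.1 TPM at 10 µM and 68.9 ± 9.15 TPM in basal cultures (-0.65 ± 0.14, adjusted p = 0.046 by edgeR). Slc1a3 (GLAST), also a glutamate transporter, averaged 252.8 ± 123.4 and 334.2 ± 121.1 TPM (-0.40 ± 0.09, adjusted p = 0.048 by edgeR). Both transporters are also in the astrocyte marker list.

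Between 10 µM and 1 µM, 3 of the 69 genes were called with the block, a share near the 4.3% of all tested genes called: Camk2a, Slc7a11 (-0.80 ± 0.14, adjusted p = 0.024 by edgeR) and Slc1a1. Slc1a1, the glutamate transporter EAAC1, was higher, at 108.2, 156.1 and 168.9 TPM at 10 µM, against 97.7, 148.2 and 148.1 TPM at 1 µM (0.21 ± 0.05, adjusted p = 0.047 by edgeR). At 1 µM against basal none was called with or without the block (edgeR, and none by DESeq2). In P11 against P13 and P14, 6 of 10 auxiliary subunits were called lower and 1 higher, and 8 of 9 kainate and delta receptor genes lower, where 25.4% of all tested genes were called lower and 25.2% higher.

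The number of calls in these lists depended on which libraries were fitted, as did the number over all tested genes. Without a single library, the 607 calls over all genes at 10 µM against basal became 0 to 581. The 659 between 10 µM and 1 µM became 0 to 651. The 8 calls at 10 µM against basal became 0 without basal P11, 0 without basal P13, 1 without basal P14, 3 without 1 µM P11, 6 without 1 µM P13, 3 without 1 µM P14, 3 without 10 µM P11, 1 without 10 µM P13 and 1 without 10 µM P14. Between 10 µM and 1 µM, the 3 calls became 1, 2 and 1 without basal P11, P13 and P14, 0 without any single 1 µM library, and 3, 1 and 0 without 10 µM P11, P13 and P14.

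**Figure D4:**
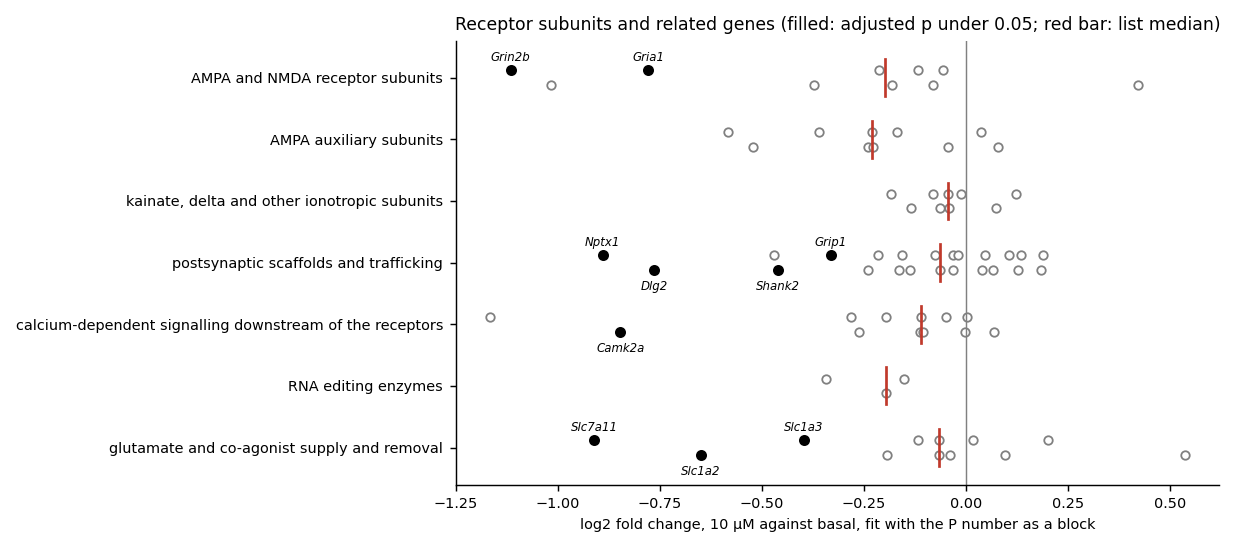
The x axis gives the log2 fold change at 10 µM against basal, from the fit with the P number as a block, of each tested gene of the receptor subunits and of 6 related lists (rows). Filled points have an adjusted p under 0.05 over all genes tested and are named, and red bars are list medians. All 10 filled points lie left of 0, and the medians lie between -0.23 and -0.04.

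Markers of other cells and of oligodendrocytes moved with the same contrast. At 10 µM against basal, 2.64% of all tested genes were called lower and 1.32% higher with the block, and without it no gene of any marker list was called by edgeR. Of 14 tested neuron markers, 4 were called lower with the block and none higher, with a median of -0.20. They were the inhibitory neuron genes Gad1 (-0.60 ± 0.05), Gad2 (-0.72 ± 0.12) and Slc32a1 (-0.33 ± 0.06) and the growth-associated gene Stmn2 (-0.36 ± 0.05). The summed neuron marker level was 479, 571 and 624 TPM at 10 µM (P11, P13 and P14), against 519, 812 and 741 TPM in basal cultures, and 484 to 742 TPM at 1 µM. It was lower at 10 µM within each P number, by more in P13 than in P11.

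In P11 against P13 and P14, 9 of the 14 neuron markers were called lower and 3 higher, with a median of -0.76, where about equal shares of all tested genes were called lower (25.4%) and higher (25.2%). The 10 astrocyte markers summed to 1416 to 2058 TPM at 10 µM, against 1854 to 2374 TPM in basal cultures. The 2 called lower at 10 µM against basal were Slc1a2 and Slc1a3, already counted among the genes for supply and removal of glutamate. Of 10 microglia markers 2 were called lower, with sums of 664 to 756 TPM at 10 µM, against 694 to 982 TPM. Of 5 tested vascular and mural markers 1 was called lower, with sums of 34.0 to 162.0 TPM at 10 µM, against 46.5 to 235.9 TPM, and the endothelial marker Cldn5 had 0 to 3 reads.

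Of 10 oligodendrocyte markers, 7 were called higher at 10 µM against basal with the block and none lower (median 0.34), where 1.32% of all tested genes were called higher. Their sum was 45891 to 51089 TPM at 10 µM, against 34435 to 38996 TPM in basal cultures. None of the 9 tested OPC markers was called (median -0.08), with sums of 1326 to 1758 TPM at 10 µM, against 1466 to 1816 TPM. The part of any of these cell types in the Gria1, Grin2b and related gene differences was not tested.

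**Figure D5:**
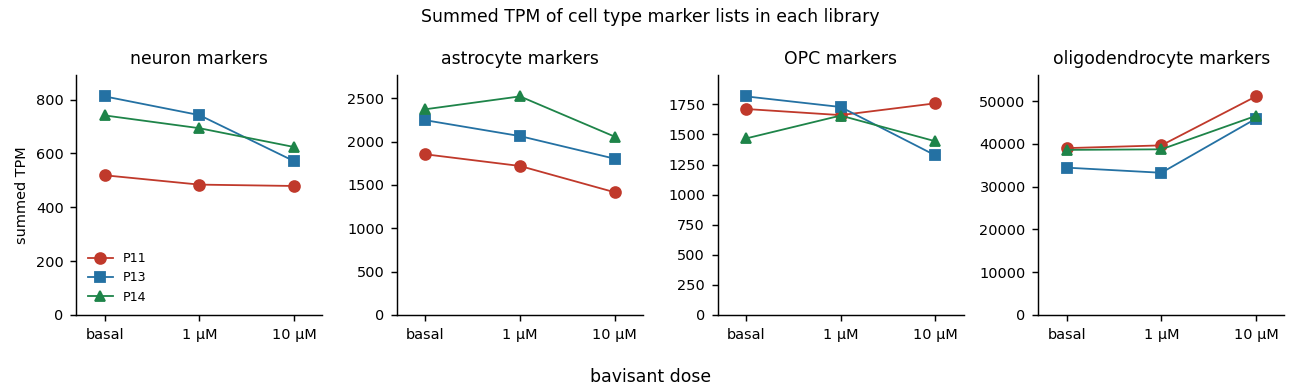
Summed TPM (y axis, linear from 0) of the neuron, astrocyte, OPC and oligodendrocyte marker lists in each library, by bavisant dose (x axis), joined within a P number (red circles P11, blue squares P13, green triangles P14). The oligodendrocyte sums at 10 µM (45891 to 51089 TPM) lie above all others, and the neuron sums are lowest in P11 at each dose.

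The genes whose pattern over the 9 libraries was most like that of Gria2, measured as the root mean square difference of centred log2 CPM over 13651 genes, were Dlg5 (0.039), Lonrf2 (0.042) and Fam168b (0.046). For Grin1 they were Camta1 (0.056), Cacng4 (0.067) and Dbn1 (0.073). Cacng4 is a member of the auxiliary list. The libraries share their P numbers and doses, so these values are a description.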

How the data were processed

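Unscaled estimated counts (expected counts, 92.7% of them whole) and TPM per gene were deposited by the authors as separate tables with 1 column per library. Libraries were made with the Illumina Stranded mRNA kit and read on an Illumina NextSeq instrument, per the labels' protocols. The submitters' processing notes name Picard, DRAGEN, Trimmomatic and FastQC and the build rn6. The sources used here do not give the aligner settings, the counter, its strand option or the annotation.

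Counts were rounded and tested in R 4.3.3 with edgeR 4.0.16 (quasi-likelihood F test, TMM, filterByExpr with a minimum of 10 reads and a total of 15), on all 9 libraries with 1 coefficient per group. This kept 15321 genes, over all of which p-values were adjusted. The SE is the size of the log2 fold change over the square root of F. P11 was set against the mean of P13 and P14 in the blocked fit. A symbol with several IDs kept the one with most reads. For counting error only, an observed 0 is compatible with 3 reads in a library.

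Same-numbered libraries deviated together from their group means (correlations of 0.377 to 0.861 in 9 pairs, against -0.798 to 0.275 in 18 pairs of different numbers), so the P number was taken to pair libraries from the data, not from the labels, and the replicate block is given beside each result it changes, such as 2 subunits called at 10 µM against 0 without it. No libraries of a group agreed within sampling noise.

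The members and lists were chosen with earlier results of these data known. All members are named; each related list gives its called genes with the smallest p, up to 4, or its most abundant gene if none was called. The counts and medians of the related lists leave out 1 gene that is not reported here. DESeq2 1.42.0, limma 3.58.1 on log2(TPM + 1) and log2(TPM + 0.1), other scalings, filters, groups and leaving out libraries were tried; the filter at 100 reads with the block was added after seeing the data. Scripts were tested on simulated data.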

Additional observations from a re-analysis of the deposited data

How the results depend on the processing

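Depth and 3 libraries a group limit the rare NMDA subunits, and every call of a subunit or related gene between doses needed the block. At 10 µM against basal, 0 subunits were called without the replicate block under any setting or library left out. With it, 2 were called as reported, with DESeq2 size factors, library totals, the DESeq2 Wald test and no count filter. Only 1 was called with limma on log2(TPM + 1), limma on log2(TPM + 0.1), all P11 libraries left out and a mean of at least 100 reads (chosen after seeing the data). Grin2b fell below that read filter and was not tested there. With only the groups compared 0 were called, and 0 to 2 without a single library. Of related genes 8 were called with the block, 8 with DESeq2 size factors, 9 with library totals, 9 with DESeq2, 8 with either limma pseudocount, 8 with no filter, 7 at 100 reads, 0 without P11 or with only the groups compared, and 0 to 6 without a single library.

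Between 10 µM and 1 µM, 1 subunit was called with the block, with DESeq2 size factors, library totals, DESeq2, both limma pseudocounts, no filter and 100 reads, none without P11 or with only the groups compared, and 0 to 1 without a single library. Of related genes 3 were called with the block, 3 with DESeq2 size factors, 5 with library totals, 7 with DESeq2, 3 and 2 with limma at pseudocounts of 1 and 0.1, 4 with no filter, 1 without P11, 4 at 100 reads and 0 to 3 without a single library. At 1 µM no subunit or related gene was called under any setting run, and over all genes 0 to 8 were. The count of subunits in P11 against P13 and P14 was 6, and 4 to 8 over the alternatives. Over all genes, the count at 10 µM against basal was 0 by edgeR and 64 by DESeq2 without the block, 607 and 964 with it, and 0 to 581 in blocked edgeR fits without a single library. Between 10 µM and 1 µM these counts were 0, 66, 659, 987 and 0 to 651.

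Of 2099 alternative values 53 had the opposite sign, and none of these passed the test. The 2099 include counts of called genes, which have no sign to change. With all P11 libraries left out, Grin3a at 1 µM against basal was 0.071 without the block and 0.078 with it, and Cacng4 at 10 µM against basal was 0.012 without and 0.012 with it. All other sign changes came from leaving out a single library, with these log2 ranges, and the cause was not tested. At 10 µM against basal they were -0.28 to 0.070 for Gria3, -0.14 to 0.045 for Gria4, -0.37 to 0.14 for Grin1, -0.15 to 1.15 for Grin2c and -0.26 to 0.23 for Cacng4. At 1 µM against basal they were -0.71 to 0.073 for Gria1, -0.18 to 0.079 for Gria2, -0.13 to 0.26 for Gria3, -0.069 to 0.14 for Gria4, -0.33 to 0.18 for Grin1, -0.61 to 0.17 for Grin2a, -0.12 to 1.29 for Grin2c and -0.18 to 0.085 for Grin3a. Between 10 µM and 1 µM they were -0.27 to 0.0014 for Gria2, -0.34 to 0.013 for Gria3, -0.18 to 0.027 for Gria4, -0.29 to 0.21 for Grin1 and -0.64 to 0.47 for Grin2c. Gria1 and Grin2b at 10 µM kept their sign in every setting run, as did every subunit in P11 against P13 and P14. Leaving out a library from the fit without the block unbalances the P numbers between doses.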
